A study of Gossypium hirsutum with 16 samples.

Results

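The response to silencing of GhBRC1 was examined in the shoot apex of strain 3798, a nulliplex-branch upland cotton (Gossypium hirsutum), whose flowers arise directly from the main stem in place of a long fruiting branch. Messenger RNA of 8 seedling libraries was compared, 4 from plants labelled as silenced and 4 from plants labelled as control, out of 16 libraries in the series. The other 8 libraries come from Jinxian-short branch (JX), a strain with short fruiting branches, in 4 silenced and 4 control libraries. Silencing was virus-induced: a recombinant virus carries a fragment of the plant gene, and RNA interference in the plant then lowers the matching transcript, usually in part and unevenly between tissues. Neither the virus nor the treatment of the controls is named in the labels. Nor is it stated whether each library had its own plants, and p-values therefore cover only the spread among these libraries, which may be technical. A gene ID entered the comparison when its FPKM (fragments scaled to gene length and sequencing depth) was 0.5 or more in at least 4 of the 8 libraries of 3798. This held for 52169 of 70422 IDs. At the edge of that rule, 1684 IDs reached 0.5 FPKM in exactly 4 libraries, with a median level of 0.599 FPKM over the 8 libraries, and 1269 IDs reached it in exactly 3, with a median level of 0.463 FPKM. Of the 1684, 449 reached it in the 4 silenced libraries alone and 332 in the 4 controls alone, so their entry depended on the group in which they were high.

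BRC1 belongs to the TCP family of plant transcription factors. In Arabidopsis, tomato and pea it acts inside axillary buds, where it integrates signals from auxin, strigolactone, cytokinin and light quality and restrains the bud from growing out. The shoot apex holds the stem cells of the apical meristem, the youngest leaf primordia and the axillary meristems that in cotton become vegetative or fruiting branches. Gene names could not be joined to the IDs of the table, so the GhBRC1 transcript, its hormone and flowering pathways and the markers of the shoot apex were not analysed here. Group and tissue labels are therefore used without a check by a marker or by the silenced gene. In such bulk tissue, fewer cells of a type and less RNA per cell cannot be told apart.

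Library 3 of the 3798 controls stood apart, as did silenced library 4 to a lesser degree, and the main counts are given with and without control 3. Its mean Pearson correlation over the 52169 IDs was 0.962 with the 4 JX controls and 0.926 with 3798 controls 1, 2 and 4, which correlated with each other at 0.965 to 0.967. On the second principal component of the 8 libraries (22.4% of the variance) control 3 scored -85.5, against 28.6 to 39.0 in the other 3 controls, and silenced library 4 scored -51.7, against 4.59 to 24.1 in the other 3 silenced libraries. Silenced library 4 correlated at 0.915 with the JX controls, where silenced libraries 1 to 3 did so at 0.855 to 0.865. The 4 silenced libraries of 3798 correlated at 0.949 to 0.957 with JX silenced libraries and at 0.910 to 0.922 with controls 1, 2 and 4 of their own strain. What the silenced libraries of both strains share beyond their label was not tested. On the first component (45.0%) the silenced libraries scored -66.9 to -45.5 and the controls 44.2 to 67.9, without overlap. Libraries were also placed on IDs switched between the control groups of the strains. There were 25 IDs high in 3798 controls 1, 2 and 4 and 21 high in JX controls, each at 1 FPKM or more in every library of its side and more than 8-fold lower in every library of the other. On the 25 IDs, where 0 is the level of the JX controls and 1 that of 3798 controls 1, 2 and 4, silenced libraries 1 to 3 had median positions of 0.598, 0.666 and 0.735, silenced library 4 of 0.462, and 3798 control 3 of 0.192. JX silenced libraries 1 to 4 lay at 0.506, 0.677, 0.613 and 0.161. On the 21 IDs, where 0 is the level of 3798 controls 1, 2 and 4 and 1 that of the JX controls, silenced libraries 1 to 3 lay at -0.06, -0.05 and 0.03, silenced library 4 at 0.512 and 3798 control 3 at 0.844. JX silenced libraries 1 to 4 lay at 0.207, 0.208, 0.0699 and 0.477. Control 3 was thus nearer the JX controls on both lists, and silenced library 4 lay about midway on both. On the 25 IDs, silenced libraries 1 to 3 of JX overlapped those of 3798. On the 21 IDs they lay somewhat above those of 3798, yet nearer 3798 controls 1, 2 and 4 than the JX controls. With silenced library 4 of each strain included, the strains overlapped on both lists. Total FPKM was 552185 to 572454 over the 8 libraries, 9.91% to 12.3% of the 70422 IDs were listed at 0, and sequencing depth relative to control 1 was 1 to 1.33. Absolute depth is unknown.

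**Figure D1:**
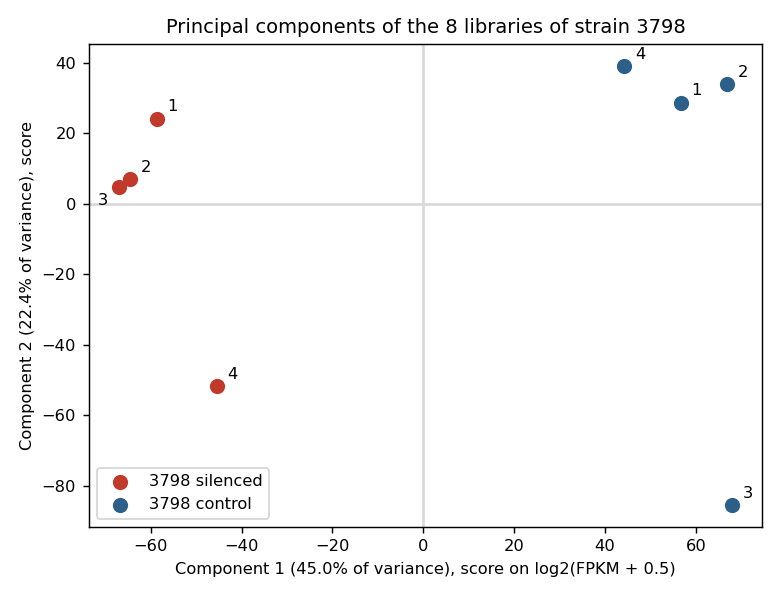
Scores of the 8 libraries of 3798 on the first 2 principal components of log2(FPKM + 0.5) over 52169 IDs, with the library number beside each point (red, silenced; blue, control). Control 3 lies at -85.5 on the vertical axis, far from controls 1, 2 and 4 at 28.6 to 39.0, and silenced library 4 lies at -51.7, below silenced libraries 1 to 3 at 4.59 to 24.1.

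Silenced apices of 3798 were compared with control apices of the same strain, transcript by transcript. Of the 52169 IDs, 4675 differed by limma at a Benjamini-Hochberg adjusted p under 0.05, which is 8.96% of those tested. In silenced apices 2730 of them rose (5.23%) and 1945 fell (3.73%). The median log2 change was 0.91 among the IDs that rose and -0.92 among those that fell, on the log2(FPKM + 0.5) scale, which understates the change of low genes. At least a 2-fold change was reached by 2033 called IDs (3.9% of those tested), 1161 up and 872 down, and at least an 8-fold change by 195 (0.374%), 109 up and 86 down. The 4 silenced and 4 control values did not overlap for 8403 IDs, or 16.1%, with 4627 higher (8.87%) and 3776 lower (7.24%) in silenced apices.

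Without control 3, limma called 6990 IDs by the same threshold (13.4%). In silenced apices 3946 of these rose (7.56%) and 3044 fell (5.83%). That balance depended on the scaling: the share that rose was 56.5% of the calls as fitted, 51.4% with median-ratio scaling and 50.8% with quantile normalization. Larger changes were about as many as before: 2210 reached a 2-fold change (4.24%) and 189 an 8-fold change (0.362%). Groups did not overlap for 14540 IDs (27.9%), 7965 higher (15.3%) and 6575 lower (12.6%), with 1 control fewer to overlap. Of the 4675 IDs called with control 3, 4309 were also called without it, all in the same direction, and 366 were not. The median within-group SD of log2(FPKM + 0.5) was 0.19 in silenced libraries, 0.23 in the 4 controls and 0.16 in controls 1, 2 and 4. Single libraries mattered to the counts. In the 8-library comparison, 3111 IDs were called without control 1, 2888 without control 2, 2772 without silenced library 2 and 2677 without silenced library 3. In the 7-library comparison these counts were 4168, 3186, 4547 and 4313.

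**Figure D2:**
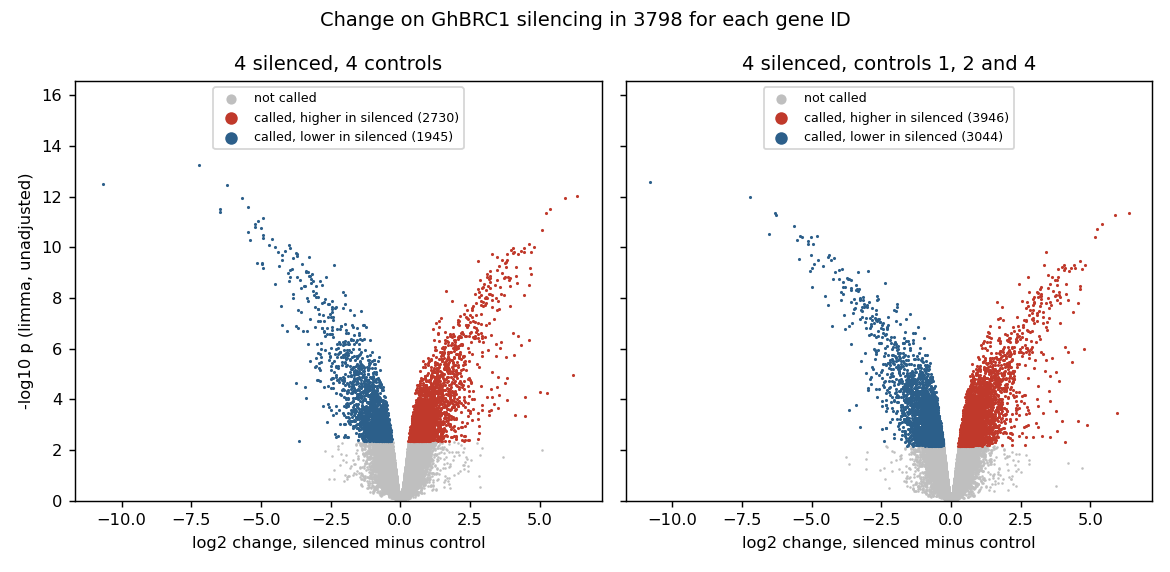
Log2 change in silenced minus control apices of 3798 (horizontal) against -log10 of limma's unadjusted p (vertical), 1 point per ID, with all 4 controls (left) and with controls 1, 2 and 4 (right). Red IDs were called higher in silenced apices (2730 left, 3946 right) and blue IDs lower (1945 left, 3044 right).

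For each direction, the 2 smallest p-values were taken among called IDs at 1 FPKM or more in all 8 libraries whose groups did not overlap. The 2 IDs that rose and the 2 that fell changed several-fold. Gh_A11G192200, on chromosome A11, was at 50.2, 57.0, 58.3 and 53.7 FPKM in silenced libraries 1 to 4, against 5.01, 4.11, 5.74 and 5.80 FPKM in controls 1 to 4. Every silenced library was far above every control, and control 3 was like the others. It rose by a log2 of 3.30 ± 0.116 (SE), with an adjusted p of 2.27e-07 by limma. Gh_D04G069700, on chromosome D04, was at 23.8, 21.1, 26.03 and 26.6 FPKM in the silenced libraries, against 1.88, 1.33, 1.74 and 1.996 FPKM in the controls. Again the groups were far apart with little spread inside each, and the ID rose by a log2 of 3.48 ± 0.126 (SE), with an adjusted p of 2.67e-07 by limma.

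Gh_D05G386600, on chromosome D05, was at 1.53, 1.46, 1.59 and 2.20 FPKM in the silenced libraries, against 60.2, 57.6, 82.1 and 63.1 FPKM in the controls. It was low but present in each silenced library, and control 3 was the highest of the controls. It fell, at a log2 change of -4.91 ± 0.144 (SE) and an adjusted p of 8.85e-08 by limma. Gh_D13G050000, on chromosome D13, was at 3.78, 3.40, 3.82 and 4.29 FPKM in the silenced libraries, against 22.8, 20.3, 22.7 and 22.0 FPKM in the controls. It fell, at a log2 change of -2.38 ± 0.0930 (SE) and an adjusted p of 4.31e-07 by limma. Without control 3 the changes of these 4 IDs were 3.35, 3.48, -4.80 and -2.36. The rule that chose them favours IDs in which control 3 is like the other controls.

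Libraries of JX, which took no part in choosing these IDs, showed changes of the same direction. Control 3, which resembles the JX controls, did take part in the choice. Gh_A11G192200 was at 24.9 to 53.8 FPKM in JX silenced libraries and 6.98 to 8.40 FPKM in JX controls. Gh_D04G069700 was at 20.03 to 25.03 FPKM in JX silenced libraries and 1.91 to 2.07 FPKM in JX controls. Gh_D05G386600 was at 0 to 2.38 FPKM in JX silenced libraries, listed at 0 in library 4, and at 48.9 to 107 FPKM in JX controls. Gh_D13G050000 was at 2.995 to 10.98 FPKM in JX silenced libraries and 17.6 to 21.6 FPKM in JX controls. The difference in log2 change, 3798 minus JX, passed for none of the 4 over all 16 libraries (limma adjusted p = 0.0849 to 0.345). Without 3798 control 3 it passed for Gh_A11G192200 alone, at 1.04 ± 0.254 (SE) with an adjusted p of 0.0146 by limma. Over 16 libraries the difference of this ID was about the same, at 0.993 ± 0.243 (SE). Leaving out control 3, which resembles the JX controls, favours such differences, and the ID was chosen by its p in 3798. In the other 3 IDs the difference without control 3 ranged from -0.63 to 0.98 with SEs of 0.163 to 0.573.

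**Figure D3:**
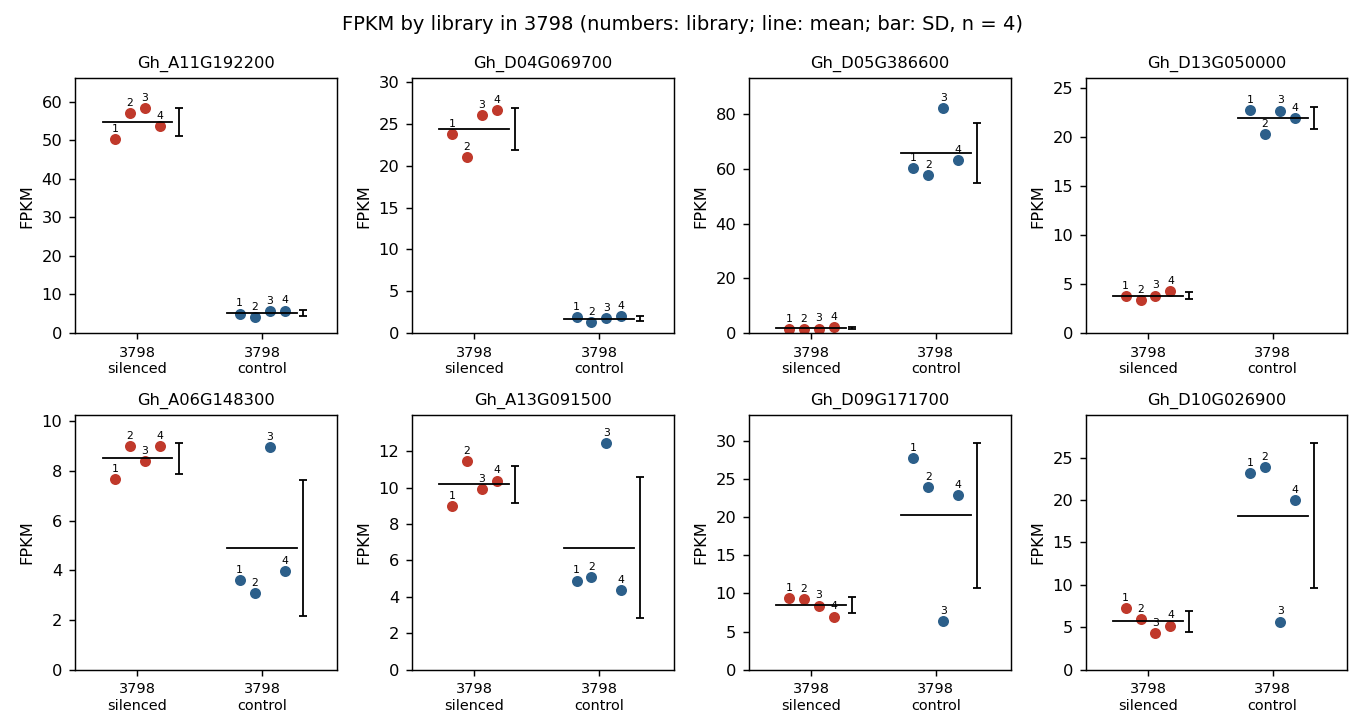
FPKM of 8 IDs in the silenced (red) and control (blue) libraries of 3798, with library numbers, the mean of each group as a line and its SD (n = 4) as a bar. In the upper row all 4 controls lie together. In the lower row control 3 lies with or beyond the silenced libraries, at 8.96 and 12.5 FPKM in Gh_A06G148300 and Gh_A13G091500 and at 6.34 and 5.68 FPKM in Gh_D09G171700 and Gh_D10G026900.

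A further 2681 IDs were called only without control 3, of which 1412 were higher and 1269 lower in silenced apices. Gh_A06G148300, on chromosome A06, was at 7.69, 9.003, 8.40 and 8.99 FPKM in silenced libraries, against 3.60, 3.07 and 3.98 FPKM in controls 1, 2 and 4 and 8.96 FPKM in control 3. Gh_A13G091500, on chromosome A13, was at 9.003, 11.5, 9.93 and 10.4 FPKM in silenced libraries, against 4.89, 5.10 and 4.37 FPKM in controls 1, 2 and 4 and 12.5 FPKM in control 3. Both rose when control 3 was left out, by a log2 of 1.16 (SE 0.114) and 1.01 (SE 0.108) with limma adjusted p of 0.000398 and 0.000625. With control 3 they did not pass (limma adjusted p = 0.0837 and 0.167).

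Gh_D09G171700, on chromosome D09, was at 9.33, 9.22, 8.39 and 6.96 FPKM in silenced libraries, against 27.7, 23.9 and 22.8 FPKM in controls 1, 2 and 4 and 6.34 FPKM in control 3. Gh_D10G026900, on chromosome D10, was at 7.26, 5.94, 4.34 and 5.21 FPKM in silenced libraries, against 23.2, 23.8 and 19.96 FPKM in controls 1, 2 and 4 and 5.68 FPKM in control 3. Both fell without control 3, with log2 changes of -1.50 (SE 0.121) and -1.90 (SE 0.156) and limma adjusted p of 0.000114 and 0.000133, and did not pass with it (limma adjusted p = 0.147 and 0.0583). In all 4 IDs the value of control 3 lay inside or beyond the silenced range, which the rule that chose them favours.

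Control 3 was set aside for its likeness to the JX controls, so the levels of JX controls in these 4 IDs are a description. They held 8.11 to 10.9 FPKM of Gh_A06G148300, 11.2 to 13.2 FPKM of Gh_A13G091500, 5.53 to 6.11 FPKM of Gh_D09G171700 and 4.27 to 6.23 FPKM of Gh_D10G026900. JX silenced libraries held 7.70 to 9.65, 9.46 to 14.05, 7.22 to 9.15 and 2.90 to 4.45 FPKM of the same IDs. Controls 1, 2 and 4 of 3798 were the only libraries of the 16 with low levels of the first pair and high levels of the second.

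The same was read across all called IDs by placing each library on a scale where 0 is the mean of 3798 controls 1, 2 and 4 and 1 the mean of 3798 silenced libraries, on log2(FPKM + 0.5). For the 2534 IDs that rose both with and without control 3, JX silenced libraries had median positions of 0.77 to 1.04 and JX controls of 0.02 to 0.13. For the 1775 IDs that fell in both, JX silenced libraries lay at 0.64 to 1.02 and JX controls at 0.08 to 0.18. In both lists the lowest of the JX silenced libraries was library 4. Control 3, which resembles the JX controls, lay at 0 and -0.01 in these lists. Calls that include it favour IDs in which JX controls lie near 0. For the IDs called only without control 3, JX controls lay at 1.14 to 1.27 in the 1412 that rose and 1.31 to 1.48 in the 1269 that fell, and JX silenced libraries at 0.997 to 1.27 and 1.10 to 1.43. Control 3 lay at 0.98 and 1.06 there. The rule used that position, and since control 3 was set aside for its likeness to the JX controls, the positions of JX controls in these IDs are no separate evidence.

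**Figure D4:**
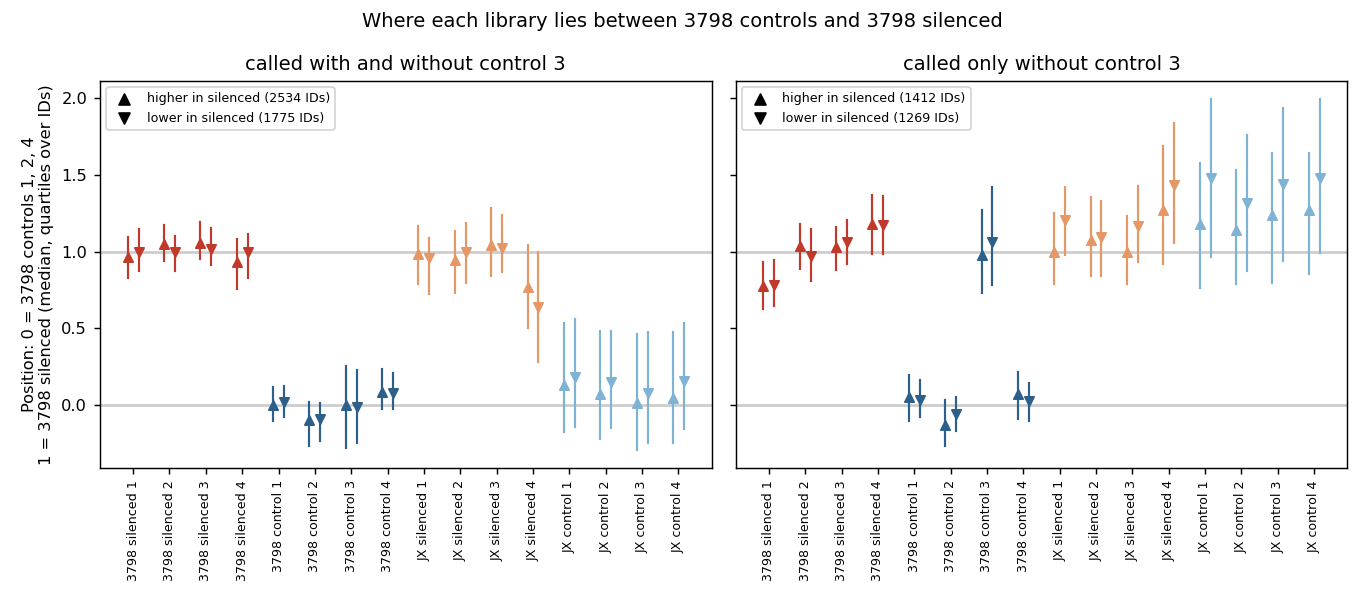
Median position of each library (point, with quartiles over IDs as a line) between the mean of 3798 controls 1, 2 and 4 (0) and of 3798 silenced libraries (1), for IDs called with and without control 3 (left; 2534 higher and 1775 lower) and only without it (right; 1412 higher and 1269 lower). On the left JX controls lie at 0.02 to 0.18, near 3798 controls. On the right they lie at 1.14 to 1.48, at or beyond 3798 silenced libraries.

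JX silenced and control libraries took no part in the 3798 comparisons, and the called IDs were read in them. Control 3, which resembles the JX controls, did take part when all 4 controls were used. Those calls favour IDs in which JX controls lie with 3798 controls. The shares with and without control 3 therefore depend in part on that choice. Of the 2730 IDs that rose in 3798 with all 4 controls, JX silenced values all lay above JX control values in 1767, or 64.7%, where this held for 15% of all tested IDs. All lay below in 17 (0.623%, against 14.6% of all tested IDs). Of the 1945 that fell, JX silenced values all lay below JX control values in 1106, or 56.9%, where this held for 14.6% of all tested IDs. In 12 all lay above (0.617%, against 15% of all tested IDs). Without control 3 the shares were smaller, at 44.9% of 3946 IDs (1771) and 37.5% of 3044 (1142). The opposite arrangement was then more frequent, in 217 (5.5%) and 239 (7.85%) IDs, but still below the 14.6% and 15% of all tested IDs.

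A smaller set of IDs was present in apices of one label and nearly absent in the other. Taking IDs at 1 FPKM or more throughout one label and more than 8-fold below its lowest library throughout the other, 164 IDs were on in silenced and off in control apices of 3798 (0.314% of those tested), and 148 were off in silenced and on in control apices (0.284%). Of the 164, 73 were listed at 0 in all 4 controls, and of the 148, 64 were listed at 0 in all 4 silenced libraries. The rule requires every library of a group, control 3 included, to be high or low. Without control 3 it gave 178 and 157 IDs. Control 3 resembles the JX controls, so the rule favours IDs in which these lie with 3798 controls. The 4 libraries in which an ID was on sufficed for it to pass the filter. The median level of an ID where it was on was 3.83 FPKM in silenced apices for the first set and 4.19 FPKM in control apices for the second.

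In JX, 101 of the 164 IDs met the same rule (61.6%, against 0.324% of all tested IDs). Silenced values lay wholly above control values in 157 of the 164, where this held for 15% of all tested IDs. Of the 148, 67 met the rule (45.3%, against 0.153%), and silenced values lay wholly below control values in 142, against 14.6% of all tested IDs. These counts compare libraries by label, and whether silencing or another property common to a label in both strains goes with them was not tested. JX silenced library 4 was the exception in the second set, with 59 of the 148 IDs above 20% of the 3798 control mean, where the other 3 JX silenced libraries had 0 or 1. Switched IDs with a chromosome in their name lay on 22 chromosomes in each set. Of these 165 IDs over both sets, 20 were next in number to another, in 9 runs of at most 3. Within 10 numbers of another lay 32. No such count for other tested IDs is given, so these are descriptions. IDs named newGene, whose names carry no chromosome, made up 70 of the 164 (42.7%) and 74 of the 148, against 9.72% of tested IDs.

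Whether the response of 3798 differed from that of JX was tested as the difference of the log2 changes, 3798 minus JX. Over all 16 libraries limma called 2 of 52169 IDs (0.00383%), 1 positive (0.00192%) and 1 negative (0.00192%), although 11570 had an unadjusted p under 0.05. Without 3798 control 3 it called 8514 IDs (16.3%), with a more positive change in 3798 for 4827 (9.25%) and a more negative one for 3687 (7.07%). Of the 3946 IDs that rose in 3798 without control 3, the difference was called positive in 1173, negative in 88 and not called in 2685. Of the 3044 that fell, it was called negative in 1064, positive in 16 and not called in 1964. Called IDs of 3798 and this difference share the 3798 libraries, so these counts are not independent of the choice of IDs. Control 3 was set aside for its likeness to the JX controls, the side compared here. Leaving it out therefore favours a difference between the strains, and the 8514 are no separate evidence of one.

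Without control 3, the 2 positive and 2 negative differences with the smallest p-values were looked at by library. In these IDs the silenced values of the strains overlapped or lay close. Controls 1, 2 and 4 of 3798 lay far from the JX controls. Gh_A09G018000, on chromosome A09, was at 221, 290, 279 and 312 FPKM in 3798 silenced libraries, against 151, 124 and 172 FPKM in 3798 controls 1, 2 and 4 and 339 FPKM in control 3. In JX it was at 209 to 238 FPKM in silenced libraries and 379 to 474 FPKM in controls. The silenced level lay above controls 1, 2 and 4 of 3798 but below control 3, and in JX it lay below the controls. Without control 3 the log2 changes of the strains differed by 1.79 ± 0.180 (SE), with an adjusted p of 0.000792 by limma. Gh_A03G120800, on chromosome A03, was at 24.8, 40.9, 30.6 and 43.8 FPKM in 3798 silenced libraries, against 19.9, 18.8 and 16.8 FPKM in controls 1, 2 and 4 and 60.5 FPKM in control 3. In JX it was at 29.2 to 34.0 FPKM in silenced libraries and 62.8 to 78.7 FPKM in controls, and the changes differed by 2.03 ± 0.212 (SE), with an adjusted p of 0.000792 by limma.

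Gh_D09G171700, described above, had the most negative of these differences, -2.02 ± 0.150 (SE), with an adjusted p of 4.7e-05 by limma. Gh_D09G034200, on chromosome D09, was at 12.5, 10.4, 10.2 and 10.6 FPKM in 3798 silenced libraries, against 21.4, 21.7 and 20.3 FPKM in controls 1, 2 and 4 and 11.6 FPKM in control 3. In JX it was at 10.51 to 12.8 FPKM in silenced libraries and 7.16 to 9.30 FPKM in controls, and the changes differed by -1.43 ± 0.138 (SE), with an adjusted p of 0.000774 by limma. With control 3 none of these 4 differences passed (limma adjusted p = 0.0756 to 0.0956). Leaving out a 3798 control for its likeness to the JX controls favours such differences.

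**Figure D5:**
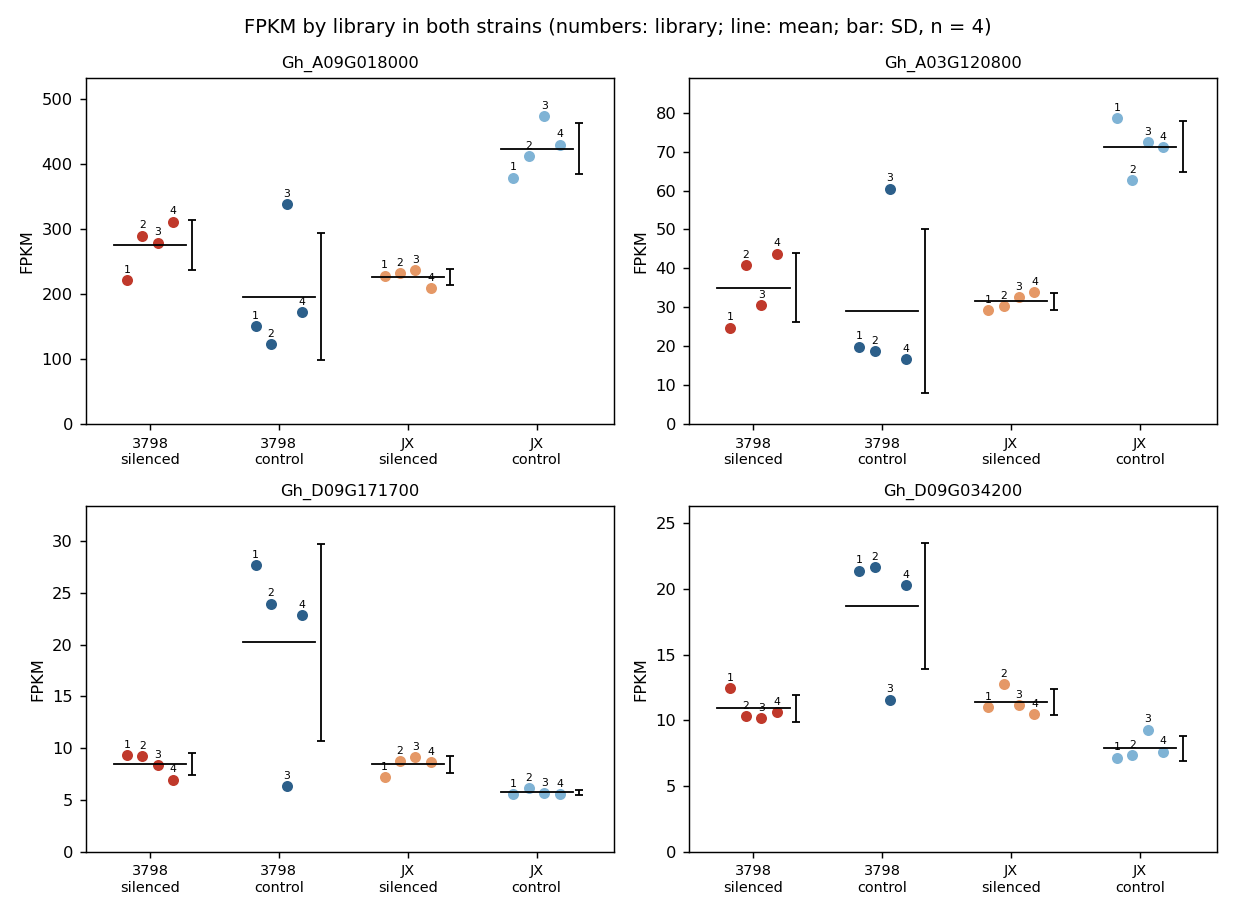
FPKM of Gh_A09G018000, Gh_A03G120800, Gh_D09G171700 and Gh_D09G034200 in 3798 silenced, 3798 control, JX silenced and JX control libraries, with library numbers, the group mean as a line and its SD (n = 4) as a bar. Controls 1, 2 and 4 of 3798 lie on one side of the silenced libraries and JX controls on the other. Control 3 of 3798 lies apart from its group in each panel, at 339, 60.5, 6.34 and 11.6 FPKM.

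Called IDs were counted by level of expression. With all 4 controls, limma called 11.3% of the 4925 IDs with a mean under 1 FPKM, 8.71% of the 33133 at 1 to 10 FPKM, 8.69% of the 13690 at 10 to 100 FPKM and 10.2% of the 421 at 100 FPKM or more. The share of the lowest class is set in part by the filter, which 449 IDs passed only through the silenced libraries and 332 only through the controls. Among the 421 most abundant, 32 rose and 11 fell. Without control 3 the shares called were 11.8%, 11.8%, 17.5% and 22.6%, and among the 421 it was 47 that rose and 48 that fell. The balance of directions among abundant transcripts thus depended on that library.

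By kind of ID, limma called 8.58% of 22876 IDs on A chromosomes, 8.93% of 23514 on D chromosomes, 9.87% of 709 on contigs and 10.7% of 5070 newGene IDs with all 4 controls. Without control 3 these shares were 13.2%, 13.9%, 14.8% and 12.1%. Changes of at least 8-fold were made up differently: newGene IDs held 72 of the 195, or 1.42% of the newGene IDs tested, against 0.236% of A and 0.285% of D chromosome IDs. Across the 26 chromosomes the share called ranged from 7.30% on D09 to 10.28% on D10, and from 11.3% on D09 to 15.5% on D01 without control 3. More IDs rose than fell on each chromosome, from 52.3% of called IDs on A09 to 70.2% on A02, where 87 rose and 37 fell. Without control 3 the range was 50.9% on A13, with 108 up and 104 down, to 65.9% on D03. The balance per chromosome was not computed under other scalings. These shares are descriptions and were not tested.

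Summaries of whole libraries were compared as well. The number of IDs at 1 FPKM or more was 46763 ± 338 in silenced libraries and 46390 ± 518 in controls (SD, n = 4 each, two-sided exact permutation test, p = 0.29). Without control 3 the controls held 46065 to 46244 such IDs, below the 46355 to 47162 of the silenced libraries, and the difference was 629 IDs in place of 373 (exact permutation test, p = 0.057, the smallest that 4 against 3 allows). The number of IDs listed at 0 was 7696 ± 509 in silenced libraries and 8305 ± 228 in controls (SD, n = 4 each, exact permutation test, p = 0.057), of which the highest silenced value, 8130, lay above the lowest control value, 8096. The difference was -608.5 IDs over 8 libraries and -369 IDs without silenced library 3, which had the highest estimated relative depth of the 8. Of the summed FPKM, A chromosome IDs held 46.9% ± 0.128 in silenced libraries and 47.0% ± 0.172 in controls, D chromosome IDs 47.7% ± 0.236 and 47.4% ± 0.215, and newGene IDs 4.08% ± 0.187 and 4.21% ± 0.207 (SD, n = 4 each, exact permutation tests, p = 0.14 to 0.60). The 10 most abundant IDs held 2.34% to 3.14% in silenced libraries and 2.61% to 3.44% in controls. None of the 6 summaries passed after adjustment over them (adjusted p = 0.34 to 0.60, and 0.17 to 0.46 without control 3), and 4 against 4 cannot give an exact p below 0.029.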

How the data were processed

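The authors deposited 1 table of FPKM for 70422 IDs in 16 libraries. Only the table's name and its values give that unit. The aligner, counter, genome build, annotation and strand setting were not given in the sources used here. As a result, reads of near-identical A and D copies, or of genes overlapping on opposite strands, could have been split, dropped or joined. Titles gave the group and replicate number of each library, and columns were matched to samples by the code in the description. Of 99454 RefSeq genes of another cotton assembly, 0 matched an ID, so gene lists, markers and sequences planned for named genes were not used.

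FPKM are not counts, so no count model was used. Of 62716 values of IDs under 0.5 FPKM in every library, 11.6% lay within 0.02 of a whole multiple of their ID's lowest value (4% for evenly spread values), so reads were not recovered. Relative depth was estimated as the most frequent ratio between libraries over these IDs, without read counts to check it. No 2 libraries were identical (0 pairs).

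Values were modelled as log2(FPKM + 0.5) with limma 3.58.1 (R 4.3.3), with trend and robust prior variance, in the 8 libraries of 3798, in 7 without control 3, and, for the difference between strains, in 16 and in 15 libraries. All p-values are two-sided. The Benjamini-Hochberg adjustment ran over 52169 IDs, with a threshold of 0.05. The procedure was run on simulated data with independent noise for each ID and library. Such data lack the shared deviations of control 3 and silenced library 4, so they cannot show how those libraries move the counts. Library summaries were compared with exact permutation tests in scipy 1.17.1. With no names, 2 IDs that rose and 2 that fell are named per comparison, by smallest p: for 8 libraries among called IDs at 1 FPKM or more in each whose groups do not overlap, for 7 likewise among IDs not called in the 8-library fit, and for the difference among called IDs in 15 libraries. The comparison, its members and these rules were chosen with earlier results of these data known.

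Alternatives were pseudocounts of 0.1 and 1, other filters, quantile normalization, median-ratio scaling, a fit to all 4 groups, prior variance without robust estimation, a replicate block, library weights, a 2-fold minimum and each library left out. Python 3.11.15 with numpy 2.4.6, pandas 2.3.3 and matplotlib 3.10.9 was used for summaries and figures.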

Additional observations from a re-analysis of the deposited data

Results flagged for a closer look

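A library was marked where it lay far from the other 3 of its group. This was checked in 48 groups of 4 values, of which chance marks about 5%. Some groups were values of IDs chosen in fits without control 3, which leaves that library free to differ. The chance rate is therefore no baseline for such IDs. They are among the 6 groups that were marked, all of them for 3798 control 3. It had 47157 IDs at 1 FPKM or more, with 46244 in the next control, and scored -85.5 on the second principal component, with 28.6 in the next. It held 8.96 FPKM of Gh_A06G148300, with 3.98 in the next control, and 12.5 FPKM of Gh_A13G091500, with 5.10 in the next; the rule that chose this pair favours such values. It held 60.5 FPKM of Gh_A03G120800, with 19.9 in the next, and 11.6 FPKM of Gh_D09G034200, with 20.3 in the next. This pair was chosen by smallest p in a fit without control 3, which also favours such values.

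In 4 IDs the change on silencing differed between the strains when 3798 control 3 was left out. That library was left out for its likeness to the JX controls, which favours such differences. With it none of the 4 passed (limma adjusted p = 0.0756 to 0.0956). The difference in log2 change, 3798 minus JX, was 1.79 for Gh_A09G018000, 2.03 for Gh_A03G120800, -2.02 for Gh_D09G171700 and -1.43 for Gh_D09G034200 by limma, with the adjusted p-values given in the report.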

How the results depend on the processing

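The named IDs kept their direction and their side of the threshold under every alternative run for their comparison, 240 values in all. Choice by smallest p favours such stability. Putting control 3 back was not among these alternatives. With it, the 4 IDs of the 7-library comparison did not pass (limma adjusted p = 0.0583 to 0.167). Nor did the 4 differences between strains (limma adjusted p = 0.0756 to 0.0956). For silenced against control in 3798, counts within 1.5 times of 4675 came from pseudocounts, filters, scaling, the fit to all 4 groups (6713) and prior variance without robust estimation. A 2-fold minimum gave 2033, library weights 8291, with control 3 weighted lowest at 0.298, and leaving out each library 2677 to 6990. Without both control 3 and silenced library 4, a choice made after seeing the data, 7191 IDs were called. For the comparison without control 3 (6990), a 2-fold minimum gave 2210 and leaving out each further library 3186 to 7191.

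The replicate block gave 2940 IDs over 8 libraries, 2978 over 7 and 9196 for the difference between strains without control 3. The deviations of same-numbered 3798 libraries correlated at 0.20, 0.09, -0.13 and -0.23 for numbers 1 to 4. Those of control 3 and silenced library 4 correlated at 0.455, and these outlying libraries weigh on every deviation from a group mean. Whether libraries of the same number were grown or handled together therefore cannot be told from these values.

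The difference between strains over 16 libraries (2 IDs) became 0 with the replicate block (11504 at an unadjusted p under 0.05, by limma) and 10259 with library weights. Leaving out 1 library gave 0 to 8514 IDs: 8514 without 3798 control 3, 240 without JX silenced library 4 and at most 15 without any other. Without control 3 it was 5530 to 12323, the lowest without 3798 control 2. The A chromosome share of FPKM, -0.0494 percentage points in silenced minus control, ranged from -0.121 (without control 3) to 0.0121 with a library left out. It was above 0 without silenced library 4 (0.0121) and without control 1 (7.53e-06), none passing. Without any other library its sign held. The remaining summaries kept their sign and did not pass. The switched counts moved by less than 1.5 times with a 4-fold rule. What causes these shifts was not tested. Absolute depth is unknown, so counting error at low FPKM could not be given.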
